A study of Mus musculus with 10 samples.

Results

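The interferon regulatory factor (IRF) family was followed in sorted myeloid cells of the inflamed mouse spinal cord. Its members were chosen by name, as *Irf1*, *Irf2*, *Irf3*, *Irf4*, *Irf5*, *Irf7*, *Irf8* and *Irf9*, and each of these 8 genes had 1 row among the 55487 genes of the table. The libraries came from male C57BL/6 mice of 8 to 12 weeks that carry the *Arg1*-eYFP reporter allele (Arg1tm1Lky), in which yellow fluorescent protein (YFP) is made under the control of the *Arg1* promoter. All mice had experimental autoimmune encephalomyelitis (EAE), a model of multiple sclerosis, and were taken at peak disease. From the spinal cord of each of 5 mice (numbered m2, m6, m234, m235, m236), 200000 YFP+ cells (ARG1+) and 100000 YFP− cells (ARG1−) were sorted from viable CD45+CX3CR1+ cells without CD3 or Ly6G, so that 5 ARG1+ libraries stood against 5 ARG1− libraries of the same animals. Healthy mice were not analysed here. This gate holds monocyte-derived cells (Mdcs), microglia and central nervous system-associated macrophages (CAMs) together, and the reporter reads *Arg1* promoter activity, not the enzyme. The comparison addressed how the RNA of ARG1+ cells differs from that of their ARG1− neighbours.

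IRF proteins are transcription factors that share a DNA-binding domain and recognize repeats of GAAA. IRF3, IRF5 and IRF7 are activated by phosphorylation downstream of nucleic acid sensors and Toll-like receptors and induce interferons and inflammatory cytokines, whereas IRF9 joins STAT proteins in the complex ISGF3 that acts after the interferon receptor. IRF1 amplifies the response to interferon gamma, IRF2 is mostly known as its antagonist, and IRF4 and IRF8 pair with the ETS factor PU.1 or with BATF proteins and are best known for guiding the development of dendritic cells, monocytes and macrophages.

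The stretches upstream of the start site are shown for the 5 members whose promoter held a match to a motif of interferon signalling or a TATA box. Motifs of interferon signalling are the textbook route by which interferons act on the family itself. This reason does not cover *Irf4* and *Irf7*, which held a TATA box only. The stretches were read from RefSeq promoters of the build GRCm38.p6, the build of the counts, which cover 250 bases before and 50 bases after a start site. All 8 members had a promoter in that set. *Irf1*, *Irf8* and *Irf9* each had a further promoter window, which held no match to the motifs below and is not shown. The motifs searched on both strands were the interferon-stimulated response element (ISRE, here GAAA and GAAA with any 2 bases between them), the gamma-activated site (GAS, TTCNNNGAA), the ETS–IRF composite element (EICE, here GGAA and GAAA with any 2 bases between them) and the TATA box (TATAAA). In the first 3 lines the capitals mark the GAS matches and, in *Irf2*, also an EICE that runs into an ISRE.

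*Irf1*, forward strand, chr11:53769904-53769952: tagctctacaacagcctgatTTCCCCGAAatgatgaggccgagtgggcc
*Irf2*, forward strand, chr8:46739495-46739549: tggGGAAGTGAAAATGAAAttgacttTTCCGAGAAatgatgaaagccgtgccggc
*Irf8*, forward strand, chr8:120736167-120736233: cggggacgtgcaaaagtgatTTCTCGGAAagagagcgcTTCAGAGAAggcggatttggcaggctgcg

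The next 3 lines show the TATA box in capitals, which began 26 bases before the start site of *Irf4*, 29 before that of *Irf7* and 31 before that of *Irf8*.

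*Irf4*, forward strand, chr13:30749195-30749224: cgcctccggctcTATAAAgttcctctttct
*Irf7*, reverse strand, chr7:141266436-141266465: tgcccgaagtacTATAAAagcactggcacc
*Irf8*, forward strand, chr8:120736315-120736344: ccccgccccatcTATAAAagcaggcgcgcg

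Over all 32851 promoters of that table, 8.30% held the GAS letters, 3.44% the ISRE, 2.72% the EICE and 13.6% the TATA box, and 79 held both an ISRE and an EICE. Counted by gene, with a match in any promoter of the gene, the shares were 9.55%, 3.99%, 3.16% and 15.7% in this order. The windows of *Irf3*, *Irf5* and *Irf9* held none of these letters. A match describes the sequence and not a bound site, and these data measured no binding.

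All values below are CPM, that is read counts scaled to the library size adjusted by TMM, and fold changes are ARG1+ over ARG1−. The total count of a library was 28870482 to 33826355 in ARG1+ and 8396863 to 35455643 in ARG1− cells, lowest in that of m234. *Arg1* itself had 814 ± 174 CPM (ARG1+) and 18.4 ± 4.96 CPM (ARG1−; SD, n = 5 each). The genes of the 2 antigens that the gate removes were near 0, with *Cd3e* at 0.0980 ± 0.0540 and 0.112 ± 0.0953 CPM and *Ly6g* at 0.0566 ± 0.0641 and 0.0285 ± 0.0482 CPM (SD, n = 5 each, ARG1+ first). *Cx3cr1*, whose protein the gate requires, had 140 ± 67.0 CPM (ARG1+) and 282 ± 176 CPM (ARG1−; SD, n = 5 each). Its log2 fold change of −1.01 had an FDR of 0.153, and of 9.24e-05 with the animal as a block. It was lower in ARG1+ cells of all 5 animals. The 8 neutrophil markers listed summed to 131 to 321 CPM in ARG1+ and 65.2 to 186 CPM in ARG1− libraries, mostly from *Mmp8* (206 ± 67.7 and 114 ± 48.0 CPM) and *S100a8* (24.0 ± 6.60 and 20.05 ± 6.87 CPM, SD, n = 5 each, ARG1+ first). Only 3 of the 8 passed the filter on low counts. Of these, *S100a9* was lower in ARG1+ cells (0.242 ± 0.101 against 2.44 ± 2.53 CPM, SD, n = 5 each; log2 fold change −3.40, FDR 0.00977). It lay near the filter and was tested in only 9 of 15 omissions of a library or animal. The part of neutrophils in the results was not tested. The 10 microglia markers listed summed to 819 to 1346 CPM in ARG1+ and to 955 to 3848 CPM in ARG1− libraries, where the highest sum was again that of m234.

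Every member was lower on average in ARG1+ cells. *Irf4*, *Irf5* and *Irf9* fell at a false discovery rate (FDR) below 0.05 over all 13740 genes tested (edgeR's quasi-likelihood test), so that 3 of 8 members were lower and 0 of 8 higher. Of all tested genes, 6.15% were lower and 6.82% higher at this limit. The median log2 fold change was −0.28 over the 8 members and −0.0022 over all tested genes. No member passed the stricter pair of limits that the study used, FDR below 0.05 together with more than 1 log2 unit of change, which 0.888% of tested genes passed as lower and 0.560% as higher. Since both libraries of an animal share that animal, the test was repeated with the animal as a replicate block, and 7 of 8 members then passed an FDR of 0.05 as lower, all but *Irf3*, where 18.3% of all tested genes were lower and 16.8% higher. The same 7 members had the lower level in ARG1+ cells of all 5 animals, as did 21.0% of tested genes. Fewer cells with an IRF transcript and less of it per cell cannot be told apart in such bulk libraries.

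**Figure D1:**
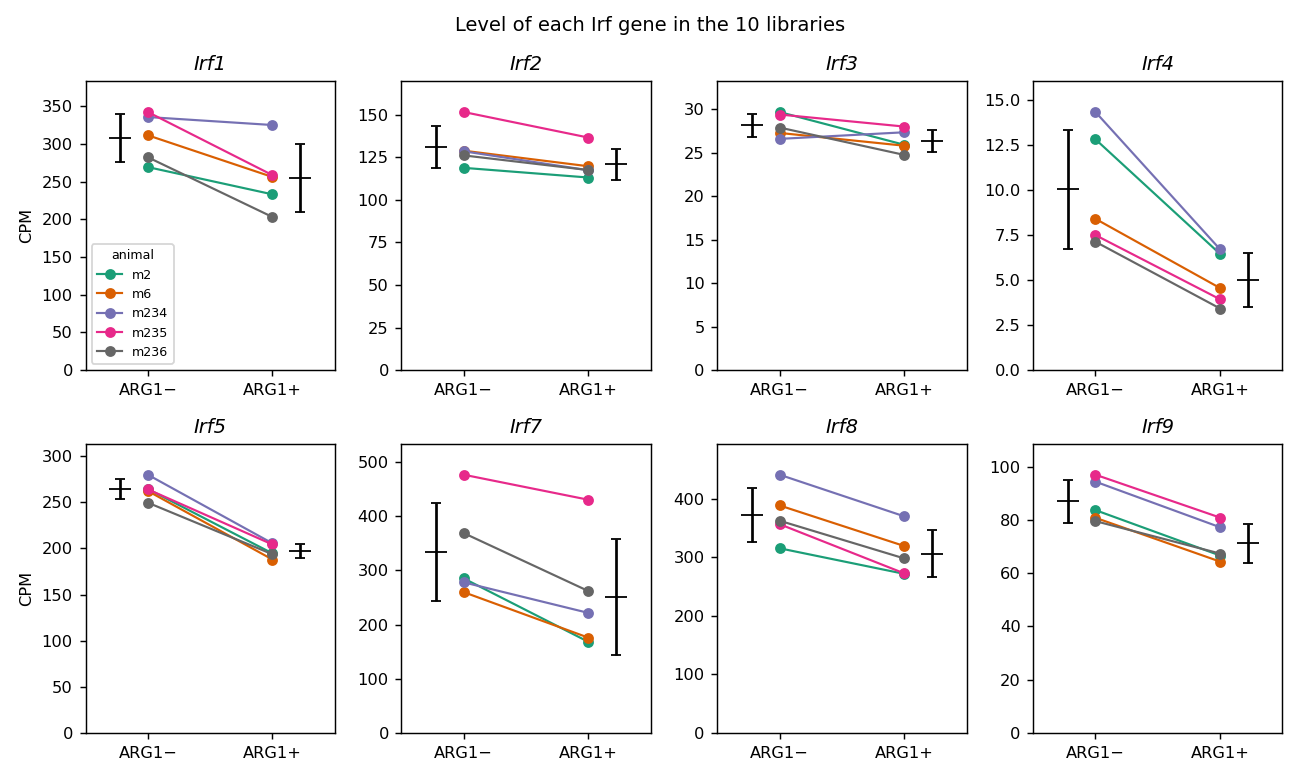
Level of each *Irf* gene (CPM, linear axes from 0) in the ARG1− and ARG1+ library of each animal, with a line joining the libraries of 1 animal and black bars for the mean and SD of the 5 libraries of a group. Lines run downward from ARG1− to ARG1+ in all 5 animals for every gene but *Irf3*, where that of m234 rises, and only for *Irf4* and *Irf5* do the groups not overlap.

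*Irf5*, which drives inflammatory cytokine genes in macrophages downstream of MyD88, had the narrowest spread between libraries and passed the limit under every alternative tried. Its level was 195, 188, 205, 204 and 194 CPM in the ARG1+ libraries of m2, m6, m234, m235 and m236. In the ARG1− libraries of the same animals it was 264, 262, 280, 264 and 250 CPM. The groups did not overlap, and the coefficient of variation within a group was 3.78% in ARG1+ and 4.08% in ARG1− cells, the lowest of the 8 members in both groups. The log2 fold change was −0.42 (standard error 0.0499, 95% confidence interval −0.53 to −0.31, FDR 4.64e-04), which leaves 74.7% of the ARG1− level. Within an animal the difference in log2 CPM ran from −0.48 to −0.37. The 2-sided exact permutation test of log2 CPM gave p = 0.00794, the floor for 2 unpaired groups of 5, and was 1 of 8 such tests. Here and below this test treated all libraries as independent and did not use the pairing by animal. Over all tested genes, 5.20% had all ARG1+ libraries below all ARG1− libraries. Over 15 omissions of single libraries or of both libraries of an animal the log2 fold change stayed between −0.44 and −0.40 and the FDR at 0.00922 or below. *Irf5* occupies bases 29526625 to 29541871 of chromosome 6 (forward strand) of GRCm38, and *Tnpo3* on the opposite strand covers 9.48% of its exon bases. The strand setting of the counting was not stated in the sources used.

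*Irf4*, which in dendritic cells and macrophages is tied to interleukin-4 and GM-CSF responses, showed the largest fold difference of the family at the lowest level. It was at 6.46, 4.57, 6.72, 3.94 and 3.43 CPM in the ARG1+ libraries of m2, m6, m234, m235 and m236. The ARG1− libraries held 12.8, 8.42, 14.4, 7.51 and 7.14 CPM. The groups did not overlap, but the gap was narrow, from 6.72 to 7.14 CPM, and m2 and m234 were the highest animals in both groups. The log2 fold change was −0.98 (standard error 0.243, 95% confidence interval −1.50 to −0.45, FDR 0.0227; exact permutation test, p = 0.00794), or 50.9% of the ARG1− level. Within the animals the difference was nearly constant, from −1.10 to −0.88 log2 CPM, and the block gave −0.99 (95% confidence interval −1.17 to −0.81, FDR 1.99e-05). Without the block the FDR was 0.0556 without the ARG1+ library of m6, 0.0507 without that of m236, 0.0586 without the ARG1− library of m2, 0.0701 without both libraries of m2 and 0.0845 without both of m6. With total count library sizes the log2 fold change was −1.02 (FDR 0.0194) and *Irf4* passed both limits. Its counts ranged from 105 to 407 per library. *Irf4* occupies bases 30749226 to 30766976 of chromosome 13 (forward strand), and no other annotated exon overlaps it.

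Most of the dendritic cell markers tested were lower in ARG1+ cells, as *Irf4* was. Of 13 markers of conventional dendritic cells (cDCs), 10 were tested and 7 were lower, among them the growth factor receptor *Flt3* (3.63 ± 1.47 CPM for ARG1− and 0.289 ± 0.141 CPM for ARG1+, SD, n = 5 each) and the cDC factor *Zbtb46* (1.49 ± 0.473 and 0.458 ± 0.153 CPM, SD, n = 5 each). *Clec9a*, the most abundant of the list in ARG1+ cells, had 13.9 ± 5.68 CPM (ARG1+) and 11.8 ± 3.66 CPM (ARG1−) and did not pass the test (log2 fold change 0.28, FDR 0.547; SD, n = 5 each). The 13 markers summed to 18.2 to 38.6 CPM in ARG1+ and 47.3 to 112 CPM in ARG1− libraries. The sums were highest in m234 and m2 in both groups, the animals in which *Irf4* was highest. In ARG1− libraries this order was not particular to the cDC markers. The microglia markers also summed highest there in m234 and m2 (3848 and 1916 CPM), as did the markers of plasmacytoid dendritic cells listed below (370 and 319 CPM). In ARG1+ libraries these 2 other lists did not have m234 and m2 as the highest animals. In ARG1− libraries they held up to 21.3 CPM of *Cadm1* and up to 16.8 CPM of *Fscn1*. Neither of these 2 markers passed the test (FDR 0.161 and 0.0515). The cDC1 receptor *Xcr1* (0.0589 ± 0.0280 and 0.124 ± 0.142 CPM) and *Cd209a* (0.0204 ± 0.0309 and 0.149 ± 0.126 CPM, ARG1+ first, SD, n = 5 each) were near 0 in both groups. Plasma cells also make *Irf4*: of 11 markers of B or plasma cells 4 were tested and 3 were lower, *Ighm*, *Igkc* and *Jchain*, with sums of 6.03 to 17.9 CPM in ARG1+ and 32.3 to 68.7 CPM in ARG1− libraries, while the B cell factor *Pax5* was at 0.0261 ± 0.0584 and 0.0975 ± 0.147 CPM (ARG1+ first, SD, n = 5 each). The part of these cells in the lower *Irf4* was not tested.

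*Irf8*, which monocytes and cDC1s need for their development, was at 272, 319, 370, 272 and 298 CPM in the ARG1+ libraries of m2, m6, m234, m235 and m236. Its ARG1− levels were 315, 388, 441, 356 and 362 CPM. Each animal's ARG1+ library was the lower, with differences of −0.39 to −0.22 log2 CPM, although the groups overlapped because animals differed in level: m234 was highest in both. The log2 fold change of −0.28 (standard error 0.103, 95% confidence interval −0.51 to −0.06) missed the limit without the block (FDR 0.0905; exact permutation test, p = 0.0556) and passed it with the block (−0.28, FDR 3.03e-04). It also passed without the ARG1+ library of m234 (FDR 0.0322) or both libraries of m234 (FDR 0.0371). *Irf8* occupies bases 120736358 to 120756694 of chromosome 8 (forward strand), with no overlapping exon. Its promoter stretches, with a pair of GAS matches and a TATA box, are shown above.

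Marker genes of other cells that carry *Irf8* were counted in the same way. Of 8 monocyte markers 7 were tested, and 3 were lower, among them *Ccr2* (388 ± 74.0 CPM for ARG1− and 178 ± 51.6 CPM for ARG1+) and *Plac8*, while *Lyz2* was higher (7262 ± 985 CPM for ARG1− and 11379 ± 1825 CPM for ARG1+, SD, n = 5 each). The monocyte list summed to 13615 to 21250 CPM in ARG1+ and 8936 to 16518 CPM in ARG1− libraries, mostly from *Lyz2* and *Chil3*. None of the 10 microglia markers tested passed an FDR of 0.05 without the block, with *P2ry12* at 24.2 ± 5.60 CPM (ARG1+) and 47.7 ± 34.5 CPM (ARG1−), and 8 were lower with it. Among 9 markers of plasmacytoid dendritic cells, which are rich in *Irf7* and *Irf8*, 4 were tested. None passed without the block, and 3 were lower with it. Their sums of 219 to 298 CPM (ARG1+) and 258 to 370 CPM (ARG1−) came mostly from *Bst2* (itself an interferon target). Of 9 markers of border-associated macrophages 5 were tested and 4 were higher in ARG1+ cells (*Mrc1*, *Pf4*, *Stab1* and *Ms4a7*, whose calls held in 5, 15, 15 and 14 of the 15 omissions). The list summed to 1611 to 2481 CPM against 869 to 1484 CPM. Most of it came from *F13a1*, which missed the limit (1021 ± 238 and 595 ± 193 CPM, FDR 0.0511), and *Stab1* (841 ± 108 and 548 ± 49.9 CPM). *Lyve1* was at 0.0967 ± 0.0764 and 0.0486 ± 0.0538 CPM (SD, n = 5 each, ARG1+ first). Like *Lyve1*, the markers *Cd163*, *Folr2* and *Cbr2* did not pass the filter on low counts. The part of these cells in the levels of the *Irf* genes was not tested.

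*Irf9*, the DNA-binding subunit of ISGF3, was at 66.6, 64.4, 77.3, 80.9 and 67.4 CPM in the ARG1+ libraries of m2, m6, m234, m235 and m236. The ARG1− libraries had 83.7, 80.8, 94.4, 97.0 and 79.6 CPM. The ARG1+ library of m235 lay just above the lowest ARG1− libraries, and within an animal the difference hardly varied, from −0.33 to −0.24 log2 CPM. The log2 fold change was −0.29 (standard error 0.0810, 95% confidence interval −0.46 to −0.11, FDR 0.0380; exact permutation test, p = 0.0238), and the block gave −0.29 with an FDR of 1.60e-04. The call without the block was fragile: the FDR was between 0.0529 and 0.134 in 10 of the 15 omissions, namely those of ARG1+ m2, m6 and m236, of ARG1− m2, m234 and m235, and of the whole animals m2, m6, m234 and m236, and it was 0.0598 without a filter on low counts. *Irf9* occupies bases 55603571 to 55610030 of chromosome 14 (forward strand), and *Rnf31* on the same strand covers 3.97% of its exon bases.

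In the interferon receptor pathway, a single gene passed the limit without the block and 5 with it. Of 13 receptors, kinases, STATs and related genes, 11 were tested, 1 was lower and 0 higher, with a median log2 fold change of −0.14. The gene that fell was *Jak2*, a kinase of the interferon gamma receptor, from 256 ± 25.1 to 164 ± 13.1 CPM (SD, n = 5 each; log2 fold change −0.64, FDR 4.88e-04, past the limit in each of the 15 omissions). *Jak1*, the most abundant gene of this list, had 289 ± 8.94 CPM (ARG1+) and 291 ± 6.41 CPM (ARG1−). *Stat2*, which encodes a subunit of ISGF3, missed the limit without the block (−0.49, FDR 0.0571) and passed it with the block (FDR 1.69e-04). The ligand genes *Ifnb1* (0.229 ± 0.140 and 0.458 ± 0.385 CPM) and *Ifng* (0.0971 ± 0.150 and 0.0521 ± 0.0378 CPM, ARG1+ first, SD, n = 5 each) did not pass the filter on low counts.

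*Irf7*, the factor that amplifies type I interferon production, varied widely between animals. Its ARG1+ levels were 168, 176, 222, 430 and 262 CPM in m2, m6, m234, m235 and m236. Its ARG1− levels were 285, 260, 278, 477 and 369 CPM. Animal m235 was highest in both groups, and levels spanned 2.56-fold among ARG1+ and 1.83-fold among ARG1− libraries, the widest range of the 8 members in ARG1+ cells and the second after *Irf4* in ARG1− cells. The log2 fold change of −0.41 had a 95% confidence interval of −0.96 to 0.14 (FDR 0.301; exact permutation test, p = 0.151). Each animal's ARG1+ library was still the lower, with a difference of −0.15 log2 CPM at the least and −0.76 at the most, and the block gave −0.46 (95% confidence interval −0.62 to −0.29, FDR 0.00115). Without the ARG1+ library of m235 the log2 fold change was −0.69 with an FDR of 0.0406. *Irf7* occupies bases 141262706 to 141266481 of chromosome 7 (reverse strand), with no overlapping exon.

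The targets of type I interferon were highest in the same animal as *Irf7*. Their summed level over 25 listed genes was 1286, 1355, 1551, 3044 and 1589 CPM in the ARG1+ libraries and 2154, 2035, 2339, 3389 and 2403 CPM in the ARG1− libraries of m2, m6, m234, m235 and m236. Thus m235 was highest in both groups, and each animal's ARG1+ library was the lower. Of the 24 targets tested, 23 had a log2 fold change below 0 and 6 fell at an FDR below 0.05, with a median of −0.54; none was higher. Among the genes past this limit the largest decreases were those of *Oasl1* (−1.11, FDR 0.0351), the ubiquitin-like *Isg15* (−0.89, FDR 0.0420), *Rtp4* (−0.79, FDR 0.0386) and the RNase L activator gene *Oas2* (−0.67, FDR 0.0322), and these 4 calls held in only 4, 2, 3 and 4 of the 15 omissions. *Ifitm3*, the most abundant target, fell from 401 ± 39.8 to 259 ± 41.3 CPM (SD, n = 5 each; −0.63, FDR 0.00327) and passed in all 15. The count of 6 was 20 without the ARG1+ library of m235 and 21 without both of its libraries, 4 on omitting ARG1− m6 or ARG1− m234, and 1 to 3 in the other 11 omissions. With the block, 21 of the 24 were lower.

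**Figure D2:**
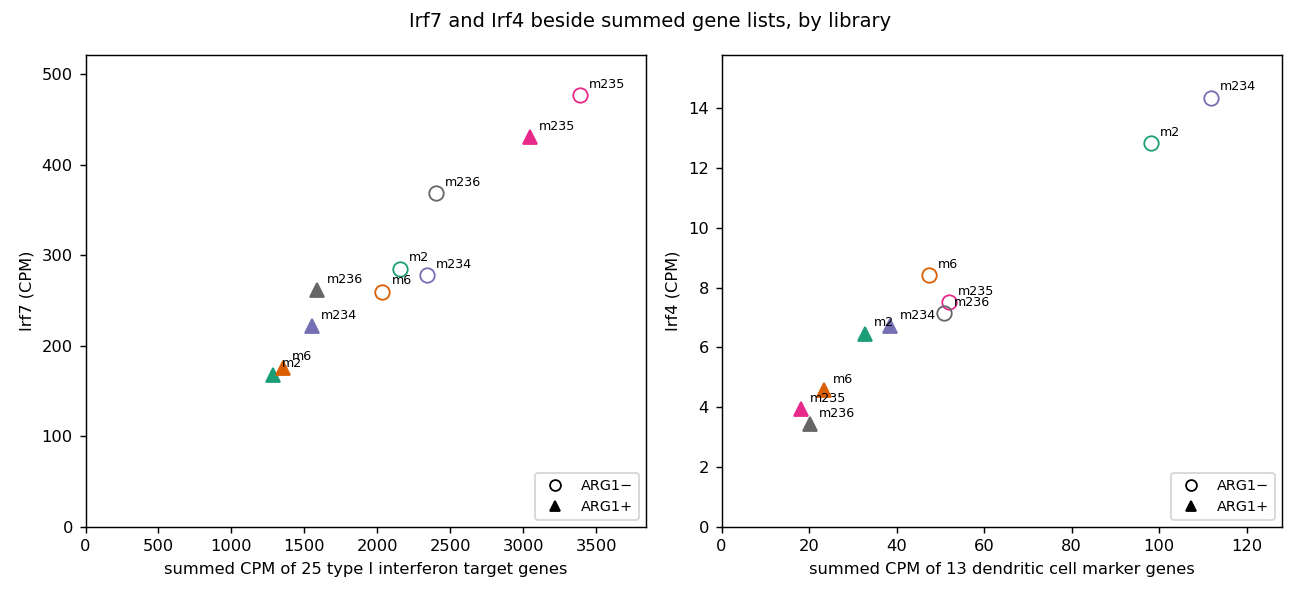
Left, *Irf7* (CPM) against the summed CPM of 25 type I interferon target genes, and right, *Irf4* (CPM) against the summed CPM of 13 dendritic cell markers, with 1 point per library (open circles ARG1−, filled triangles ARG1+, colour and label for the animal). The libraries of m235 stand highest for *Irf7* in each group, at 430 and 477 CPM, and those of m234 and m2 for *Irf4*.

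*Irf1*, the early responder to interferon gamma, was at 233, 256, 325, 259 and 203 CPM in the ARG1+ libraries of m2, m6, m234, m235 and m236. Its ARG1− levels were 269, 311, 336, 342 and 282 CPM. All animals had the lower level in ARG1+ cells, but the difference ran from −0.48 log2 CPM to only −0.05, the latter in m234. The log2 fold change was −0.27 (standard error 0.114, FDR 0.134; exact permutation test, p = 0.0556), and −0.28 with an FDR of 0.00384 with the block. Without the ARG1+ library of m234 the FDR was 0.0278, and without both libraries of m234 it was 0.0443. *Irf1* occupies bases 53770014 to 53778374 of chromosome 11 (forward strand), and *Gm17334* covers 2.997% of its exon bases on the opposite strand.

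*Irf2* and *Irf3* differed least. *Irf2* was at 113, 120, 117, 137 and 118 CPM in ARG1+ and at 119, 129, 129, 152 and 126 CPM in ARG1− libraries of m2, m6, m234, m235 and m236, a log2 fold change of −0.11 (95% confidence interval −0.27 to 0.04, FDR 0.319; exact permutation test, p = 0.159). The shift was small but of like size in each animal, from −0.15 to −0.07 log2 CPM, and the FDR with the block was 0.0223. It was between 0.0216 and 0.0905 with the block and 1 animal left out, and 2 of these 5 fits called it. *Irf2* occupies bases 46739732 to 46847458 of chromosome 8 (forward strand), with no overlapping exon.

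*Irf3*, the constitutively expressed factor downstream of TBK1, was at 25.9, 25.8, 27.4, 28.0 and 24.8 CPM in ARG1+ and at 29.7, 27.3, 26.6, 29.4 and 27.9 CPM in ARG1− libraries, in the same order of animals. It was the one member that was not lower in each animal, since m234 had 0.04 log2 CPM more in its ARG1+ library. Its log2 fold change was −0.10 (95% confidence interval −0.22 to 0.03, FDR 0.275; exact permutation test, p = 0.0714), and with the block −0.10 (95% confidence interval −0.21 to 0.01, FDR 0.143). Without both libraries of m234 the FDR with the block was 0.0470. *Irf3* occupies bases 44997648 to 45002848 of chromosome 7 (forward strand), and 1.103% of its 50-base stretches occur also in the neighbouring *Bcl2l12*.

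**Figure D3:**
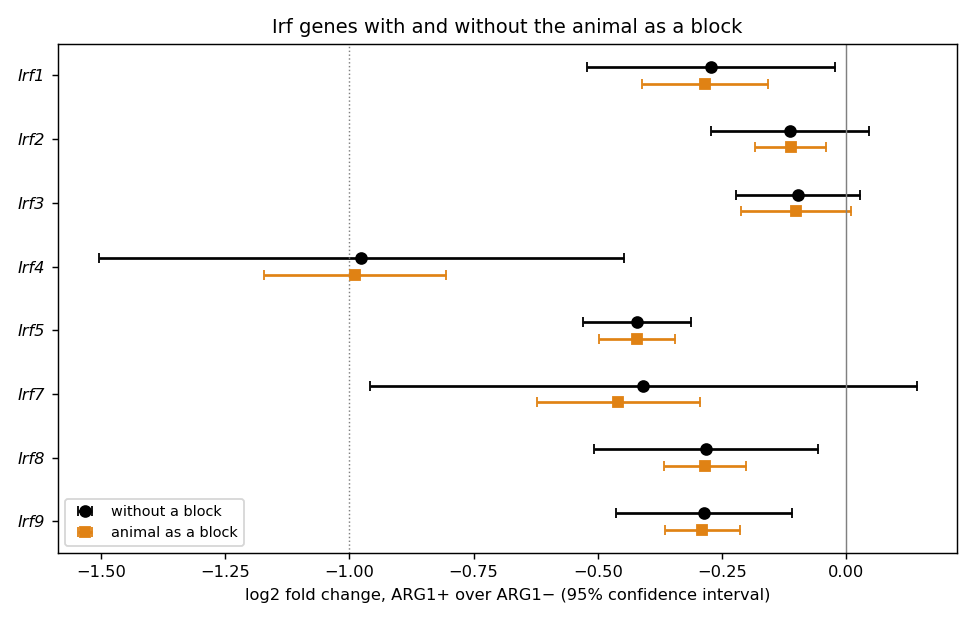
Log2 fold change of each *Irf* gene, ARG1+ over ARG1−, with its 95% confidence interval from edgeR's quasi-likelihood fit without a block (black circles) and with the animal as a block (orange squares), the solid line marking 0 and the dotted line −1. The estimates hardly move while the intervals shrink with the block, most for *Irf7*, from −0.96 to 0.14 without to −0.62 to −0.29 with it.

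Levels of the members were compared per kilobase of merged exon. In ARG1− cells *Irf7* stood highest, at 139 ± 37.7 CPM per kilobase, followed by *Irf8* (108 ± 13.5), *Irf5* (99.8 ± 4.07), *Irf1* (92.4 ± 9.61), *Irf2* (52.4 ± 4.93), *Irf9* (28.1 ± 2.59), *Irf3* (12.9 ± 0.611) and *Irf4* (2.11 ± 0.696; SD, n = 5 each). Each of the first 4 overlapped its neighbours in this order, whereas from *Irf1* downward each gene lay above the next in every library. In ARG1+ cells the levels were 105 ± 44.7 for *Irf7*, 89.1 ± 11.8 for *Irf8*, 76.5 ± 13.5 for *Irf1*, 74.5 ± 2.82 for *Irf5*, 48.4 ± 3.65 for *Irf2*, 23.0 ± 2.35 for *Irf9*, 12.05 ± 0.596 for *Irf3* and 1.05 ± 0.312 CPM per kilobase for *Irf4* (SD, n = 5 each). With the longest transcript in place of merged exons, *Irf1* became the highest in ARG1+ cells (119 ± 21.0) and the second in ARG1− cells (144 CPM per kilobase). The 4 upper places therefore had no fixed order, and the 4 lower places were the same in both groups under both lengths.

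**Figure D4:**
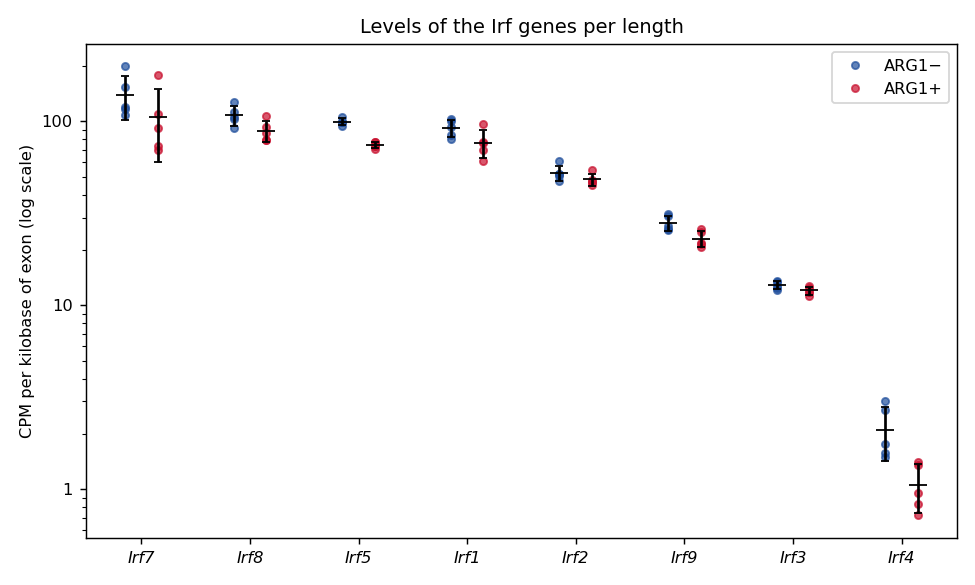
Level of each *Irf* gene per length (CPM per kilobase of merged exon, log axis) in the 5 ARG1− (blue) and 5 ARG1+ (red) libraries, with black bars for the mean and SD, ordered by the mean in ARG1− cells. *Irf7*, *Irf8*, *Irf5* and *Irf1* overlap near the top, and *Irf4* lies lowest at 2.11 and 1.05 CPM per kilobase.

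Upstream of IRF3, IRF5 and IRF7, the genes of the endosomal Toll-like receptors differed from each other. *Tlr7* and *Tlr8* were higher, *Tlr9* was lower, and *Tlr3* did not pass the limit (FDR 0.374). Of 25 sensors, adaptors and kinases tested, 2 were higher and 7 lower, and the median log2 fold change was −0.18. Of all tested genes, 6.82% were higher and 6.15% lower. With the block, 5 were higher and 13 lower, where 16.8% of all tested genes were higher and 18.3% lower. The receptor genes *Tlr8* (77.7 ± 11.5 against 55.1 ± 7.71 CPM; log2 fold change 0.49, FDR 0.0166) and *Tlr7* (115 ± 16.6 against 91.3 ± 6.80 CPM; 0.33, FDR 0.0375) rose, although the call of *Tlr7* held in only 4 of the 15 omissions and that of *Tlr8* in 12. The CpG DNA receptor *Tlr9* fell from 60.5 ± 15.6 to 34.5 ± 4.64 CPM (−0.80, FDR 0.00553), as did *Ticam1*, the adaptor of TLR3 and TLR4 (−0.60, FDR 0.00217), and *Sting1*, which relays cytosolic DNA signals to TBK1 (−0.49, FDR 0.00294). These 3 calls held in all 15 omissions. *Slc15a4*, a transporter needed for TLR signalling to IRF5, was also lower (−0.43, FDR 0.0239, held in 11), and the others were *Myd88*, *Traf6* and *Ikbkb*, whose calls held in 13, 7 and 5 omissions. *Unc93b1*, the chaperone of the endosomal receptors and the most abundant gene of the list, had 732 ± 44.2 CPM (ARG1+) and 803 ± 71.6 CPM (ARG1−) (FDR 0.237; SD, n = 5 each).

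Of 24 tested interferon gamma targets linked to IRF1, 10 fell and 0 rose, 22 had a log2 fold change below 0, and the median was −0.41. With the block, 20 were lower, and the 10 became 2 without both libraries of m6 or of m236. The subunit gene *Il12b* showed the largest decrease near the filter, from 2.28 ± 1.31 to 0.721 ± 0.440 CPM (−1.69, FDR 0.0251, held in 9 of the 15 omissions). The chemokine genes *Cxcl9* (−0.69, FDR 0.0383) and *Cxcl10* (−0.62, FDR 8.60e-04) and the GTPase gene *Igtp* (−0.66, FDR 0.0156) followed, and their calls held in 4, 15 and 13 omissions. *Nos2*, which encodes inducible nitric oxide synthase and was the most abundant gene of the list, had 1475 ± 441 CPM (ARG1+) and 1359 ± 421 CPM (ARG1−) (0.12, FDR 0.774; SD, n = 5 each).

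Among the partners of IRF4 and IRF8, 18 of 20 were tested, 8 were lower and 0 higher (10 and 3 with the block), and the median was −0.18. *Batf3*, a partner of IRF8 in cDC1s and itself a cDC marker, fell from 4.10 ± 1.34 to 2.09 ± 0.633 CPM (−0.93, FDR 0.0302, held in 7 omissions). *Myc* (−0.86, FDR 0.00337), *Batf2* (−0.58, FDR 0.0317) and *Nfkb1* (−0.43, FDR 0.00417) were lower as well, and the calls of *Myc* and *Nfkb1* held in all 15 omissions, that of *Batf2* in 5. *Spi1*, which encodes PU.1, had 236.3 ± 6.21 CPM (ARG1+) and 274 ± 16.7 CPM (ARG1−) (−0.21, FDR 0.0226, held in 9). *Junb*, the most abundant, had 1473 ± 174 CPM (ARG1+) and 1226 ± 81.8 CPM (ARG1−) (0.26, FDR 0.0660; SD, n = 5 each), and it passed as higher with the block (FDR 0.00133).

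Of 14 partners and regulators of IRF2 and other IRF proteins, 2 were lower and 0 higher (4 and 1 with the block), with a median of −0.077. They were *Lyn*, a kinase that restrains IRF5, which fell from 404 ± 20.5 to 312 ± 12.3 CPM (SD, n = 5 each; −0.37, FDR 0.00143, held in all 15 omissions), and *Irf2bpl* (−0.51, FDR 0.0311, held in 9). *Tnfaip3*, the most abundant, had 759 ± 48.1 CPM (ARG1+) and 698 ± 41.9 CPM (ARG1−) (FDR 0.231). Over these 6 lists together, 115 of 121 genes were tested, 34 were lower and 2 higher, and 11 of these 36 calls held in all 15 omissions. With the block 72 were lower and 9 higher. The count of lower genes was 11 without both libraries of m6, 13 without those of m236, 17, 19 and 20 on omitting ARG1+ m2, ARG1+ m6 and ARG1+ m236, and 22 without both libraries of m2, against 50 without the ARG1+ library of m235.

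**Figure D5:**
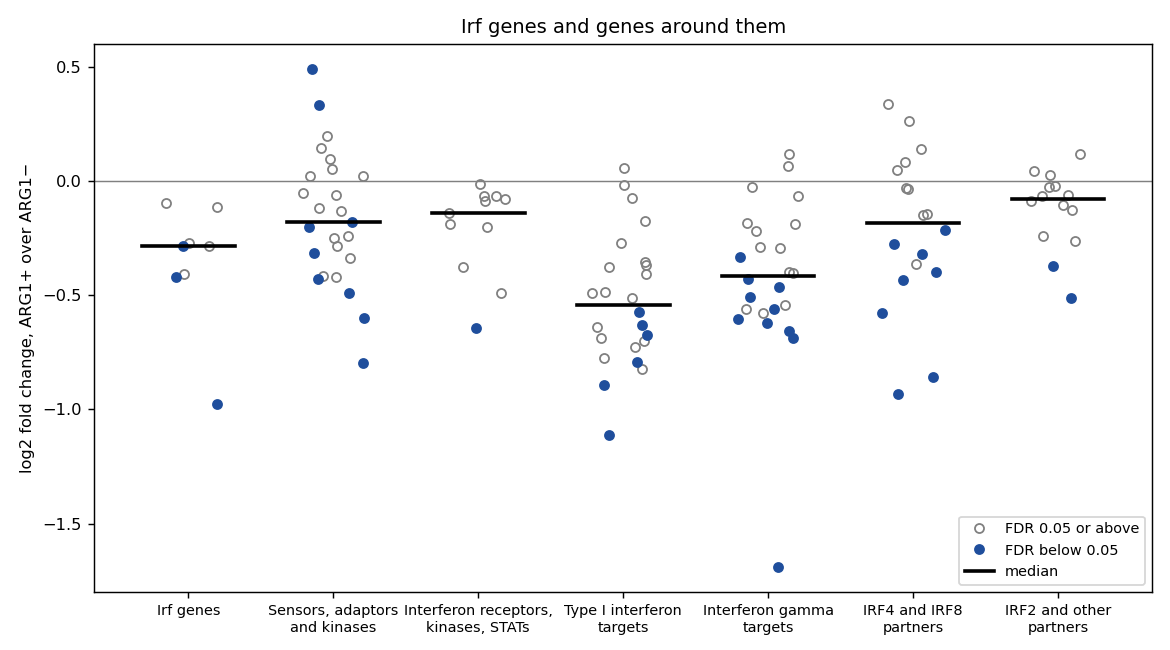
Log2 fold change (ARG1+ over ARG1−) of each tested gene of the *Irf* family and of 6 lists of genes around it, with filled points at an FDR below 0.05 (edgeR), open points above it and a black line at the list's median. Medians lie below 0 in all 7 columns, from −0.077 for the partners of IRF2 and other IRF proteins to −0.54 for the type I interferon targets.

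The genes whose pattern over the 10 libraries was most like that of a lowered member were named by Pearson's r of log2 CPM, which reflects the group difference as well as the animals and carries no test. For *Irf5* these were *Tagap1* (r = 0.984), *Klrk1* (0.983) and *Fam49b* (0.979). For *Irf4* they were *1700025G04Rik* (0.988), *Cbfa2t3* (0.987) and *Arhgef40* (0.976), and for *Irf9* *H3f3b* (0.982), *Taf15* (0.976) and *Trim56* (0.968). None of them belonged to the lists above.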

How the data were processed

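The values are read counts per Ensembl gene that the authors deposited as whole numbers without normalization. The authors read 50 bases from 1 end of strand-specific libraries, aligned them to GRCm38 with STAR (2.7.10b in the submitters' processing notes), counted alignments on the basic Ensembl annotation with summarizeOverlaps in Union mode, which leaves out reads on more than 1 feature, and summed them to genes. A gene entered the tests if its CPM exceeded 1 in 3 or more libraries, which left 13740 genes with 99.8% of counts. Groups were compared by edgeR 4.0.16 (R 4.3.3) with its quasi-likelihood fit, TMM, no block and Benjamini-Hochberg adjustment over all tested genes. The authors used limma-trend with the same limits.

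The groups share animals, as the labels' numbers and the study state. Residuals from the group means correlated at 0.361 to 0.664 within and at most 0.0675 between animals over genes. Alternatives were DESeq2 1.42.0, limma-trend (limma 3.58.1), other library sizes and filters, a replicate block for the animal, and omission of each library or animal. On simulated counts with 200 of 13740 genes changed, edgeR recovered 191 with 15 false calls, and 187 with 14 with the block. The planted changes were of 1 log2 unit or more, and the simulated libraries were drawn without an animal effect. The simulation therefore does not measure the recovery of smaller changes, such as those of the members, or the worth of the block in paired libraries. Single genes were tested on log2 CPM with a prior count of 0.5 (scipy 1.17.1).

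The members, lists and alternatives were chosen with earlier results of these data known. From each list the most abundant gene and up to 4 decreases and 4 increases past the FDR limit were named, with the defining markers and, for each lowered member, the 3 most similar genes. *Tlr3*, *Myd88*, *Traf6*, *Ikbkb*, *Spi1*, *Stat2*, *Cd163*, *Folr2*, *Cbr2*, *Cadm1*, *Fscn1* and the ligand genes were named after their values were seen. Exon overlap and shared 50-base stretches came from a GENCODE annotation of the same build. No column was left unused. Some genes are not reported here.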

Additional observations from a re-analysis of the deposited data

Results flagged for a closer look

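The *Irf2* level in the ARG1+ library of m235, at 137 CPM, stood apart from the other 4 ARG1+ libraries, which lay between 113 and 120 CPM. Its gap to the nearest library was 0.718 of the group's range, above the critical value of 0.71 for 5 samples. It was the single such value among the 16 groups of 5 libraries checked. Chance gives such a value in about 1 of 20 groups, so 1 among 16 is unremarkable. The ARG1− library of m235 was also the highest of its group, at 152 CPM.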

How the results depend on the processing

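All 8 members were lower in ARG1+ cells under each of the 30 alternatives, in 240 of 240 values. The alternatives refit the same libraries or parts of them, so these values are not independent. The share of all tested genes that kept their sign in this way is not given here. The count of lower members at an FDR below 0.05, 3 in the main test, was 7 with the animal as a replicate block and 6 in DESeq2 with this block, where *Irf2* was above the limit (FDR 0.0730). Omitting single libraries or whole animals gave 1 to 5, or 6 to 8 with the block. It was 1 on omitting ARG1+ m6, ARG1+ m236, ARG1− m2 or the whole of m2 or m6, 5 on omitting ARG1+ m234, and 2 without a filter on low counts, where *Irf9* was lost. Calls over the whole table moved as well, from 1782 genes in the main test to 4826 with the block. The shares of all tested genes called in the other fits are not given here. Whether the counts of members moved with the whole table in those fits was not tested. With both limits, 1 member (*Irf4*) passed under total count library sizes, and 0 to 1 under the omissions. For the 6 lists, 34 genes were lower and 2 higher; these counts were 72 and 9 with the replicate block, 70 and 8 in DESeq2 with it, 45 and 4 in DESeq2 without it, and 44 and 1 with total count library sizes. The omissions gave 11 to 50 lower and 0 to 3 higher. Together with the block they gave 64, 67, 74, 72 and 69 lower for m2, m6, m234, m235 and m236, and 5 to 8 higher. The exact permutation test on total count CPM brought p to 0.0476 for *Irf1* and *Irf2*, 0.0159 for *Irf3* and 0.0238 for *Irf8*, each above 0.05 on the TMM scale. The cause of these moves was not tested. Depth limits *Irf4* most, at 105 counts in its lowest library.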
